A study of Mus musculus with 24 samples.

Results

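The type I interferon-stimulated genes described here are 37 of the 38215 genes in a mouse RNA-seq count table, chosen by symbol from a list of well-known members and followed across 6 groups of natural killer (NK) cell libraries. NK cells were WT or lacked FcRγ, the signalling adaptor encoded by Fcer1g, labelled KO. Each genotype was sampled in 3 states with 4 libraries each: spleen cells of naive mice, spleen cells labelled as IL-15 treated, and cells from tumour-bearing lung, which the labels also list as naive for treatment. In the series' design text the 4 libraries per group are biological replicates, without saying what was replicated. How IL-15 was given, which tumour was used, how the NK cells were isolated, the mice's age and how the Fcer1g allele was made are not stated in the labels. Nothing states that the libraries came from separate animals, so p-values measure the spread between these libraries only, which may in part be technical.

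Type I interferons bind the receptor IFNAR, which activates the kinases JAK1 and TYK2. These phosphorylate STAT proteins, among them STAT2, which join IRF9 in ISGF3, the complex that binds interferon-stimulated response elements (ISREs) in promoters. The induced genes block viral entry, translation and replication, sense viral nucleic acids, or feed back on the pathway. In NK cells type I interferon is known as an activator of cytotoxicity, and interferon-gamma, the type II interferon that NK cells make themselves, induces part of the same gene set.

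The members were grouped by role into 3 transcription factors of the pathway (Irf7, Irf9, Stat2), 4 sensors (Ddx58, Dhx58, Ifih1, Zbp1), 12 effectors that act on nucleic acids or translation or that restrict replication in the cytosol (Adar, Eif2ak2, Ifit1, Ifit2, Ifit3, Isg20, Oas1a, Oas2, Oas3, Oasl1, Oasl2, Samd9l), 9 genes of the ubiquitin, ISG15 and related systems (Dtx3l, Herc6, Isg15, Parp9, Parp14, Rtp4, Trim25, Trim30a, Usp18), 5 of entry, budding and replication (Bst2, Cmpk2, Mx1, Mx2, Rsad2) and 4 others (Ifi35, Ifi44, Sp100, Xaf1). They lay on 15 chromosomes. Only Sp100 was on chromosome 1, where Fcer1g is, 85.5 Mb from it. Dtx3l and Parp9 overlap on opposite strands, and whether the counting used strand is not stated, so their counts may share reads.

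Levels are CPM, a gene's counts relative to the library's total after trimmed-mean (TMM) scaling. Library totals ran from 9.68 to 32.1 M counts. WT lung replicate 1 (9.77 M) and KO naive replicate 1 (9.68 M) were far shallower than the other 22 libraries, which held at least 21.2 M. The Fcer1g label check held in every library. Fcer1g stood between 253 and 795 CPM in the WT libraries and between 1.25 and 16.2 CPM in the KO libraries. NK cell markers were high in all 24 libraries, with the 10 listed genes summing to between 8350.5 and 23800.2 CPM and every one above a mean of 1 CPM in each group. Lung libraries also held RNA of other cell types. Neutrophil markers summed to a mean of 11.2 CPM in WT lung and 20.8 CPM in KO lung, against 0.152 CPM or less in each spleen group. Of these 6 markers 3, Retnlg, Ly6g and Mpo, had means below 1 CPM in both lung groups. Lyz2, a macrophage and neutrophil lysozyme, ranged from 46.2 to 572 CPM in lung and stayed at or below 7.85 CPM in spleen.

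Of the 37 members, 35 passed the filter on low counts in the spleen fits and all 37 in the fits with lung libraries. Mx2 and Oas2 were the exceptions. Per kilobase of exon, Sp100 was the most abundant member in WT naive spleen at 69.6 ± 3.59 CPM per kb (SD, n = 4), followed by Trim30a at 42.3 ± 4.37 and Ifi35 at 40.3 ± 5.59, which did not differ beyond their spread. Sp100 encodes a nuclear body protein, Trim30a a TRIM-family regulator and Ifi35 an interferon-induced leucine zipper protein. At the low end Mx1, the interferon-induced dynamin-like GTPase, stood at 0.332 ± 0.236 CPM per kb and Mx2 at 0 in all 4 libraries. WT naive spleen had the highest mean of the 6 groups for 13 members, KO lung for 9, KO naive for 6, WT IL-15 for 4, KO IL-15 for 3 and WT lung for 2. The lowest mean fell in KO IL-15 or in WT lung for 13 members each.

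**Figure D1:**
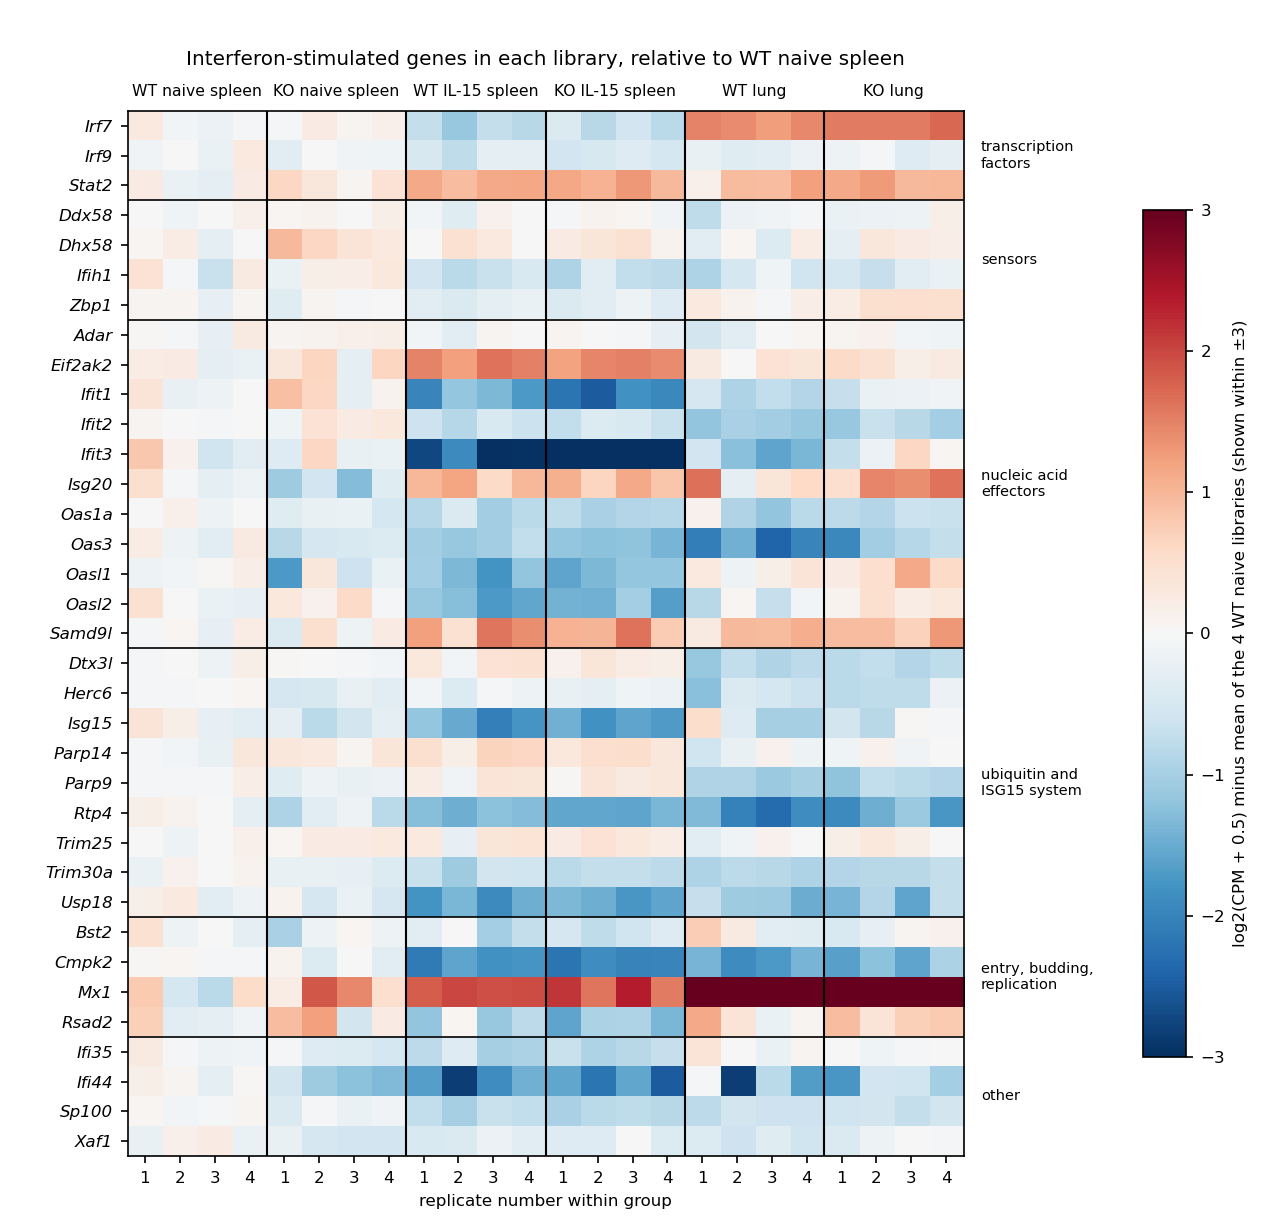
Heat map of 35 members (rows, by role) in the 24 libraries (columns, by group and replicate), colour giving log2(CPM + 0.5) minus the mean of the 4 WT naive libraries, drawn within ±3. Ifit3 is the deepest blue row under IL-15, and Mx1 is the deepest red row in lung, where Irf7 is also red.

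The promoters are shown because the members are grouped by response to one complex, and the sequences let the shared element be seen. RefSeq promoters on GRCm38.p6, from 250 bases before to 50 bases after each start site, were matched for 28 of the 37 members. None was matched for Mx1, Mx2, Oas2, Usp18, Rtp4, Dhx58, Zbp1, Parp9 or Parp14. An ISRE core, searched as GAAA, any 2 bases and GAAA on both strands with overlaps allowed, occurred in 12 of the 28 genes (42.9%), against 3.99% of 27025 genes in the whole table. The longer form, the core followed by C, occurred in 10 of 28 (35.7%) against 0.944%. A GAS core, the STAT dimer element searched as TTCNNNGAA on both strands, occurred in 7 of 28 (25%) against 9.55%. These matches describe letters in a window and say nothing of whether a factor binds. Of the 5 members with 2 or more ISRE cores, Isg15, Ifit3, Ifit1 and Bst2 are printed, together with Irf7 for its role, 5′ to 3′ in the direction of transcription, with ISRE core matches in capitals on either strand.
Isg15: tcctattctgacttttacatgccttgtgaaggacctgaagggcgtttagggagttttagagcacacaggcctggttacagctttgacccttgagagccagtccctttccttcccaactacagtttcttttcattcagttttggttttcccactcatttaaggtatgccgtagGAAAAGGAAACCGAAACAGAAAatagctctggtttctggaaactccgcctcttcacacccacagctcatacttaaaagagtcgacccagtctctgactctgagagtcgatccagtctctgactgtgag
Ifit3: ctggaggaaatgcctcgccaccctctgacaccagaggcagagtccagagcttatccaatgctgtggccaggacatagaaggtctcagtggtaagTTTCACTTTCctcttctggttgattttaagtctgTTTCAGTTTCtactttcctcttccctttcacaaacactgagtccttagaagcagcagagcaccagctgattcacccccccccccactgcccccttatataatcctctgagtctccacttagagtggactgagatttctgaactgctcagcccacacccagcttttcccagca
Ifit1: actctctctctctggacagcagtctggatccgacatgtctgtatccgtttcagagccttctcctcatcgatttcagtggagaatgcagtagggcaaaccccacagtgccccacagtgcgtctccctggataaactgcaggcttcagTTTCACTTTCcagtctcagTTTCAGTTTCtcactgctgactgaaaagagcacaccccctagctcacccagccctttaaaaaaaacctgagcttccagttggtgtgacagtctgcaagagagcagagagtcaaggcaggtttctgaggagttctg
Bst2: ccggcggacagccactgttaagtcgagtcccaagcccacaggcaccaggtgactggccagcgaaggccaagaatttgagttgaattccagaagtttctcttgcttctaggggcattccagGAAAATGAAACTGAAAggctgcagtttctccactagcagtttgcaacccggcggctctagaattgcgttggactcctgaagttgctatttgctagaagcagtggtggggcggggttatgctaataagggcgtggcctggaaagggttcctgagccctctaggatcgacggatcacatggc
Irf7: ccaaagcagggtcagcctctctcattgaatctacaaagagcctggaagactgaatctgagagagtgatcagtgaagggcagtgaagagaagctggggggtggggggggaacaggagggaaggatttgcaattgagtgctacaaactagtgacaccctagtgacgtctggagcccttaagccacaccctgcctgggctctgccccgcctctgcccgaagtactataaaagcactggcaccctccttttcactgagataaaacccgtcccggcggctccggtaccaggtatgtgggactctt
Isg15 (chr4:156200769-156201068, minus strand) carried 3 overlapping cores that start 78, 72 and 66 bases before the start site. Ifit3 (chr19:34583279-34583578, plus strand) carried 2, starting 156 and 122 bases before it, and Ifit1 (chr19:34640639-34640938, plus strand) carried 2, starting 104 and 85 bases before it. Bst2 (chr8:71537423-71537722, minus strand) carried 2 overlapping cores, and Irf7 (chr7:141266375-141266674, minus strand) had none in this window. Oas1a also carried 2 cores. Stat2 and Eif2ak2 carried 1 core each.

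With IL-15 most members were lower than in naive spleen, in both genotypes, while a small set was higher. In WT cells 6 of 35 tested members were higher and 21 lower (17.1% and 60%), against 26.4% higher and 26% lower of the 13344 genes tested. In KO cells 5 were higher and 19 lower (14.3% and 54.3%), against 20.7% and 21% of all genes. The members' median log2 change was -0.73 in WT and -0.51 in KO, against -0.01 over all genes in each. The 2 genotypes share no library in these contrasts. Of the lower calls 18 were common to both, 85.7% of the WT list and 94.7% of the KO list, and of the higher calls 4 were common, Eif2ak2, Isg20, Samd9l and Stat2. No member was called in opposite directions.

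The transcription factors split. Irf7, the IRF that amplifies interferon production, stood at 65.2, 50.2, 47.1 and 51.1 CPM in WT naive replicates 1 to 4 and at 31.9, 23.9, 32.2 and 29.5 CPM with IL-15. In KO cells it stood at 50.6, 62.8, 56.4 and 58.8 CPM and at 39.2, 29.6, 35.3 and 30.1 CPM. All IL-15 libraries lay below all naive libraries. The log2 change was -0.95 (SE 0.13, adjusted p = 8.3e-06) in WT and -0.84 (SE 0.13, adjusted p = 4.9e-05) in KO.
Irf9, the DNA-binding subunit of ISGF3, stood at 72.6, 78.4, 67.5 and 94.9 CPM in WT naive libraries and 55.99, 45.7, 63.5 and 64.5 CPM with IL-15, and at 62.8, 78.8, 72.3 and 71.1 and 52.4, 55.5, 59.8 and 53.8 CPM in KO. It fell by 0.54 in WT (adjusted p = 0.0016) and by 0.44 in KO (adjusted p = 0.0099) on the log2 scale, with no overlap between the states in either genotype. Stat2, the STAT subunit of ISGF3 that binds IRF9, went the other way. It stood at 29.8, 21.6, 20.2 and 29.5 CPM in WT naive libraries and 55.7, 47.4, 55.5 and 56.6 CPM with IL-15, and at 38.6, 31.7, 26.4 and 33.7 and 56.04, 51.9, 62.2 and 49.3 CPM in KO. All IL-15 libraries were above all naive ones, and the log2 change was 1.00 (SE 0.14, adjusted p = 9.0e-06) in WT and 0.69 (SE 0.14, adjusted p = 0.000703) in KO.

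Among effectors that act on nucleic acids, Ifit3 fell most. Ifit3, a member of the family that binds viral RNA, stood at 18.99, 11.5, 6.77 and 8.31 CPM in WT naive libraries and 1.17, 2.45, 0.846 and 0.925 CPM with IL-15. In KO it stood at 7.99, 16.7, 9.06 and 9.20 and 0.863, 0.648, 0.8292 and 0.714 CPM. The groups did not overlap, and the log2 change was -3.18 (SE 0.39, adjusted p = 1.7e-06) in WT and -3.88 (SE 0.40, adjusted p = 3.8e-07) in KO. Ifit1, its relative, changed by -1.84 in WT and -2.97 in KO, Ifit2 by -0.73 and -0.88, and Oasl2, an oligoadenylate synthetase-like gene, by -1.90 and -2.08. Oas1a, Oas3 and Oasl1 were also lower in both genotypes, so 7 of the 11 tested effectors fell in each. The other 3 called effectors rose in both genotypes. Eif2ak2, which encodes the double-stranded RNA kinase PKR, stood at 15.3, 15.5, 10.8 and 11.3 CPM in WT naive libraries and 37.8, 31.1, 41.2 and 38.2 CPM with IL-15, a log2 change of 1.40 (SE 0.18, adjusted p = 4.1e-06), and changed by 0.97 (SE 0.18, adjusted p = 0.000297) in KO. Samd9l, a translation-restricting antiviral gene, changed by 1.13 (SE 0.23, adjusted p = 0.000398) in WT and 1.01 (SE 0.23, adjusted p = 0.00161) in KO. Isg20, an RNA exonuclease, changed by 1.04 (SE 0.38, adjusted p = 0.0283) in WT and 2.18 (SE 0.41, adjusted p = 0.000287) in KO, from 0.337 to 2.37 CPM in the naive libraries. Adar, the RNA-editing deaminase, was called in none of the comparisons reported here. Its levels ran from 69.3 to 123 CPM over the 24 libraries.

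Isg15 and its protease Usp18 fell with IL-15. Isg15, a ubiquitin-like protein that is conjugated to others, stood at 16.4, 14.2, 10.4 and 9.85 CPM in WT naive libraries and 5.24, 4.05, 2.63 and 3.28 CPM with IL-15, and in KO at 10.3, 6.85, 8.35 and 10.3 and 4.24, 3.15, 3.79 and 3.51 CPM. It changed by -1.82 (SE 0.25, adjusted p = 5.6e-06) in WT and -1.35 (SE 0.24, adjusted p = 0.000215) in KO, without overlap. Usp18, the protease that removes ISG15 and restrains IFNAR, stood at 18.8, 20.3, 13.1 and 14.8 CPM in WT naive libraries and 4.40, 6.10, 4.05 and 5.64 CPM with IL-15, and in KO at 17.9, 11.5, 14.2 and 11.5 and 6.23, 5.65, 4.59 and 5.19 CPM. Its log2 change was -1.82 (SE 0.21, adjusted p = 8.1e-07) in WT and -1.41 (SE 0.21, adjusted p = 2.3e-05) in KO. Rtp4 and Trim30a were also lower in both genotypes. Parp14, an ADP-ribosyltransferase, rose by 0.40 in WT (adjusted p = 0.0142) and stood at a change of 0.09 in KO (adjusted p = 0.621). Parp9, which pairs with Dtx3l as a ubiquitin ligase, stood at a change of 0.14 in WT (adjusted p = 0.351) and rose by 0.41 in KO (adjusted p = 0.00945).

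Among genes of entry, budding and replication, Cmpk2, a mitochondrial nucleotide kinase beside Rsad2, changed by -1.97 (SE 0.16, adjusted p = 1.6e-08) in WT and -2.02 (SE 0.17, adjusted p = 1.4e-08) in KO. Mx1 went up in WT. It stood at 2.21, 0.600, 0.393 and 1.81 CPM in WT naive libraries and 5.09, 5.79, 5.50 and 5.61 CPM with IL-15, and in KO at 1.35, 5.19, 3.75 and 1.75 and 6.46, 4.26, 7.55 and 4.12 CPM. The WT states did not overlap and the KO states did. The log2 change was 2.04 (SE 0.48, adjusted p = 0.00163) in WT and 0.80 (SE 0.46, adjusted p = 0.177) in KO. Rsad2, the antiviral nucleotide-modifying enzyme viperin, had a log2 change of -0.99 (SE 0.49, adjusted p = 0.0995) in WT and fell in KO, at -2.33 (SE 0.51, adjusted p = 0.00126). Of the remaining genes, Ifi44 fell in WT, at -2.74 (SE 0.72, adjusted p = 0.00347), and had a log2 change of -1.502 (SE 0.71, adjusted p = 0.097) in KO, from 3.09 ± 0.485 CPM (SD, n = 4) in WT naive libraries. Whether the change with IL-15 differed between genotypes was tested directly and is given with the KO comparisons.

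**Figure D2:**
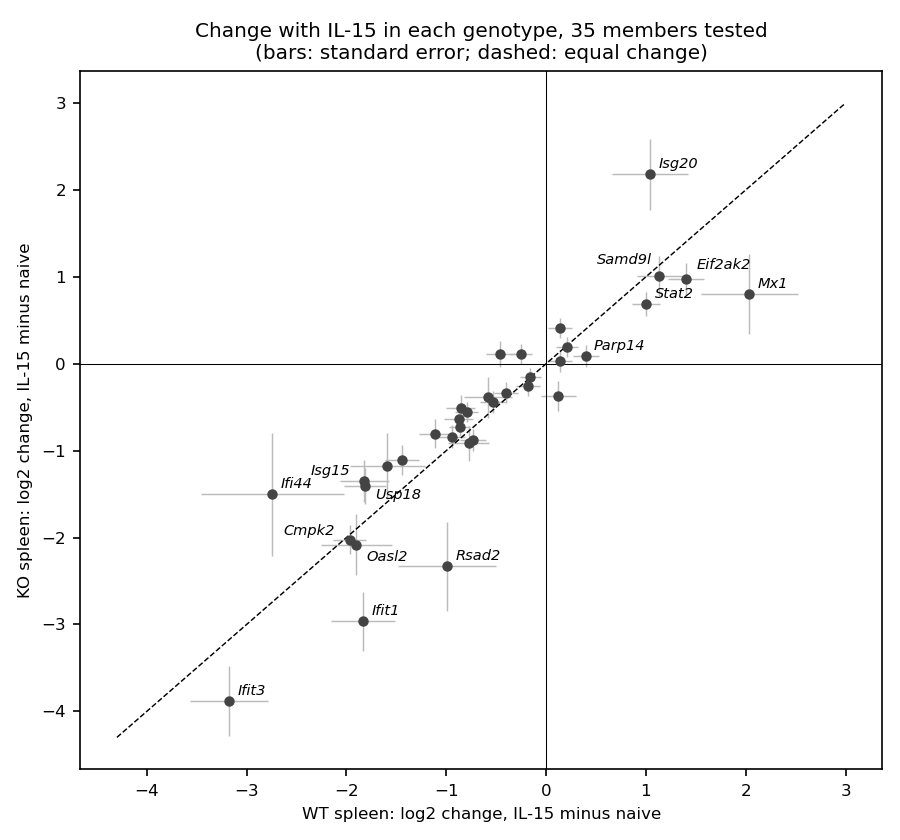
Scatter of the log2 change with IL-15 in WT spleen (x axis) and KO spleen (y axis) for the 35 tested members, with standard errors and a dashed line of equal change. Ifit3 is the farthest to the lower left, and Eif2ak2, Samd9l, Isg20, Stat2 and Mx1 are to the upper right.

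**Figure D3:**
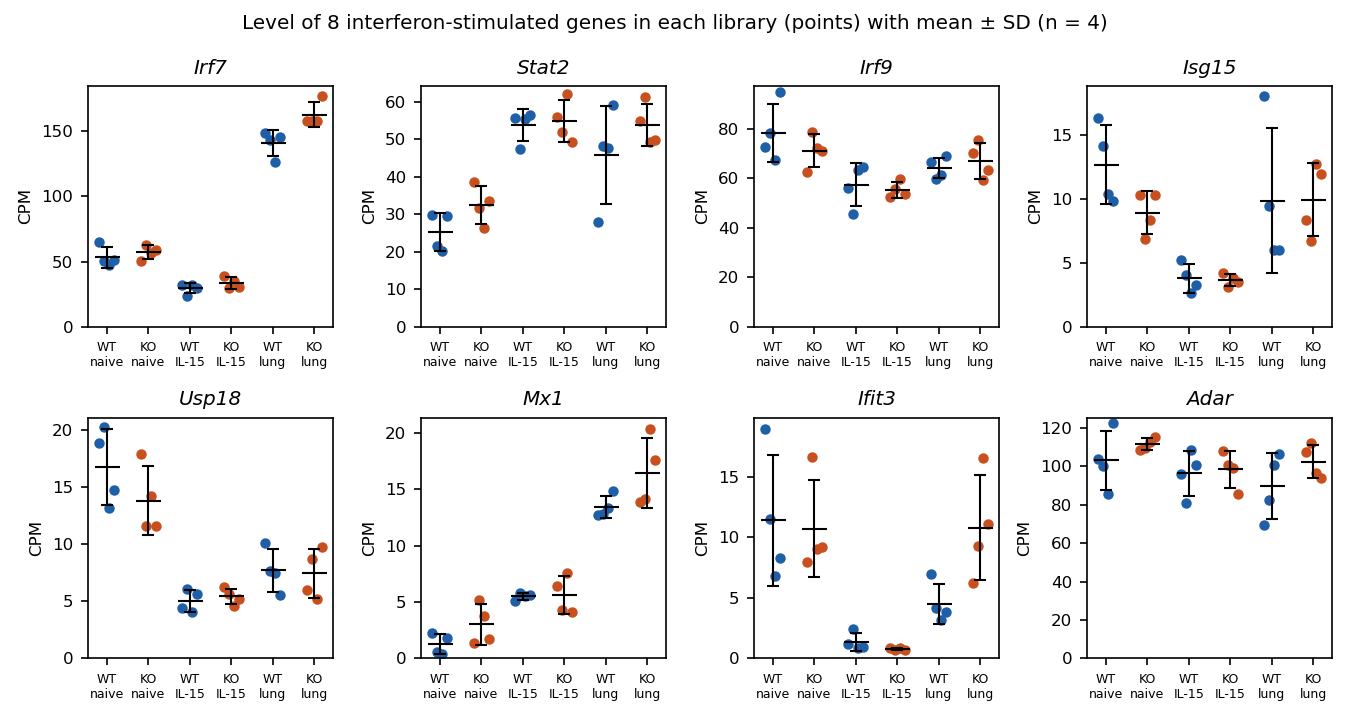
Levels in CPM of 8 members in the 4 libraries of each group (points; blue WT, orange KO) with mean ± SD. Irf7 is highest in lung, Ifit3 is lowest with IL-15, and Adar stays within a narrow range.

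Other RNA moved with these changes. The summed level of 9 monocyte and macrophage markers went from 159 ± 32.6 CPM in WT naive to 37.9 ± 2.65 CPM with IL-15, and from 236 ± 51 to 44.3 ± 6.26 CPM in KO (SD, n = 4). Most of the naive sum was Ly6c2, which NK cells also express, and 6 of the 9 markers were below 1 CPM in naive spleen. Cd68, a lysosomal protein in the same list, went the other way, from 4.92 to 20.1 CPM in WT and from 4.12 to 24.03 CPM in KO, and was the largest part of the sum with IL-15. The NK cell marker sum went from 23028 to 9365 CPM in WT and from 19476 to 8619 CPM in KO. Gzma, the granzyme gene that was its largest part in naive spleen, went from 8316 to 2613 CPM in WT. In KO Gzma stood at 5856 CPM in naive spleen, and with IL-15 the largest part was Il2rb, at 2181 CPM. The shift of either sum had, in each genotype, an exact two-sided permutation p of 0.0286, the smallest that 4 against 4 libraries allow, and an adjusted p of 0.0679 over 126 marker tests. In bulk samples fewer cells of a type and less RNA per cell cannot be told apart, and the part of these shifts in the members' changes was not tested.

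In NK cells from tumour-bearing lung Irf7, Stat2, Mx1 and Samd9l were higher than in naive spleen in both genotypes, and Cmpk2, Usp18, Rtp4, Parp9 and Dtx3l were lower. Of the 9 genes of the ubiquitin, ISG15 and related systems, Rtp4 included, 6 were lower in WT and 5 in KO. Herc6 was lower in WT only, and Trim25 was called in neither. Tissue and tumour differ together between these groups and cannot be told apart. In WT cells 5 of 37 members were higher and 16 lower, against 29.2% and 20% of the 14275 genes tested (13.5% and 43.2% of members). In KO cells 8 were higher and 10 lower (21.6% and 27%), against 24.3% and 18.1% of all genes. Medians were -0.29 in WT and -0.04 in KO, against 0.08 and 0.05 over all genes. Of the higher calls 4 were common to both genotypes, 80% of the WT list and 50% of the KO list, and of the lower calls 10, 62.5% and 100%. No member was called in opposite directions. The naive libraries are the same as those in the IL-15 contrasts, so changes in lung and with IL-15 are given only side by side.

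Irf7 rose in lung. WT lung libraries stood at 149, 143, 126 and 145 CPM and KO lung libraries at 158, 157, 157 and 177 CPM, above every spleen library. The log2 change from naive spleen was 1.40 (SE 0.12, adjusted p = 8.8e-10) in WT and 1.504 (SE 0.12, adjusted p = 4.9e-10) in KO. Stat2 stood at 27.8, 48.2, 47.8 and 59.3 CPM in WT lung and 54.96, 61.2, 49.3 and 49.9 CPM in KO lung, a change of 0.86 (SE 0.17, adjusted p = 0.000167) and 0.73 (SE 0.17, adjusted p = 0.00126). WT lung replicate 1 was within the naive range. Irf9 stood at 66.5, 59.96, 61.6 and 68.9 CPM in WT lung and 70.3, 75.7, 59.2 and 63.3 CPM in KO lung. Its change was -0.29 (adjusted p = 0.0494) in WT, a call lost when any 1 of 5 libraries was left out, and -0.09 (adjusted p = 0.592) in KO.

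Mx1 stood at 12.7, 12.8, 13.4 and 14.8 CPM in WT lung and 13.8, 14.1, 20.4 and 17.6 CPM in KO lung, above all spleen libraries. Its log2 change from naive spleen was 3.40 (SE 0.41, adjusted p = 2.0e-07) in WT and 2.42 (SE 0.39, adjusted p = 1.9e-05) in KO. Its neighbour Mx2 gave 22 counts over the WT lung libraries against 0 in WT naive, at least 9.28-fold higher with 3 counts over the naive group as the floor, and had an adjusted p of 0.0111. Isg20 rose in KO by 2.67 (SE 0.46, adjusted p = 4.3e-05), with 0.85 (adjusted p = 0.105) in WT. Oasl1, Zbp1 and Oas2 passed the test in KO and not in WT, and the difference between genotypes did not pass for any of them. Oasl1 had a log2 change of 1.08 in KO and 0.20 in WT, and Zbp1, a sensor of Z-form nucleic acids, of 0.50 and 0.14. Oas2 was at 2.25 CPM or less in every library.

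Among the lower members, Oas3 fell in WT, at -2.03 (SE 0.23, adjusted p = 9.3e-08), and had a log2 change of -0.54 (SE 0.22, adjusted p = 0.0517) in KO. Rtp4, a chaperone-like inhibitor of viral replication, changed by -1.93 (SE 0.21, adjusted p = 4.7e-08) and -1.04 (SE 0.20, adjusted p = 0.000219). Cmpk2 changed by -1.65 (SE 0.18, adjusted p = 5.1e-08) and -1.23 (SE 0.18, adjusted p = 5.5e-06), and Usp18 by -1.14 (SE 0.23, adjusted p = 0.000203) and -0.89 (SE 0.23, adjusted p = 0.00275). Ifit2 changed by -1.10 (SE 0.13, adjusted p = 1.8e-07) and -1.15 (SE 0.13, adjusted p = 1.4e-07). Parp9 and Dtx3l, whose loci overlap, were lower in both genotypes, at -0.99 and -0.88 in WT. Ifit3 fell in WT, at -1.36 (SE 0.36, adjusted p = 0.00316), and had a log2 change of 0.00 (SE 0.35, adjusted p = 0.997) in KO, with levels of 6.93, 4.17, 3.21 and 3.81 CPM in WT lung and 6.23, 9.30, 16.6 and 11.1 CPM in KO lung. Isg15 stood at 18.1, 9.43, 6.02 and 6.04 CPM in WT lung and 8.38, 6.72, 12.8 and 11.95 CPM in KO lung, with WT lung replicate 1 highest, and log2 changes of -0.39 (SE 0.30, adjusted p = 0.295) and 0.16 (SE 0.30, adjusted p = 0.709). Usp18 stood at 10.1, 7.66, 7.45 and 5.57 and 5.99, 8.73, 5.22 and 9.79 CPM.

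**Figure D4:**
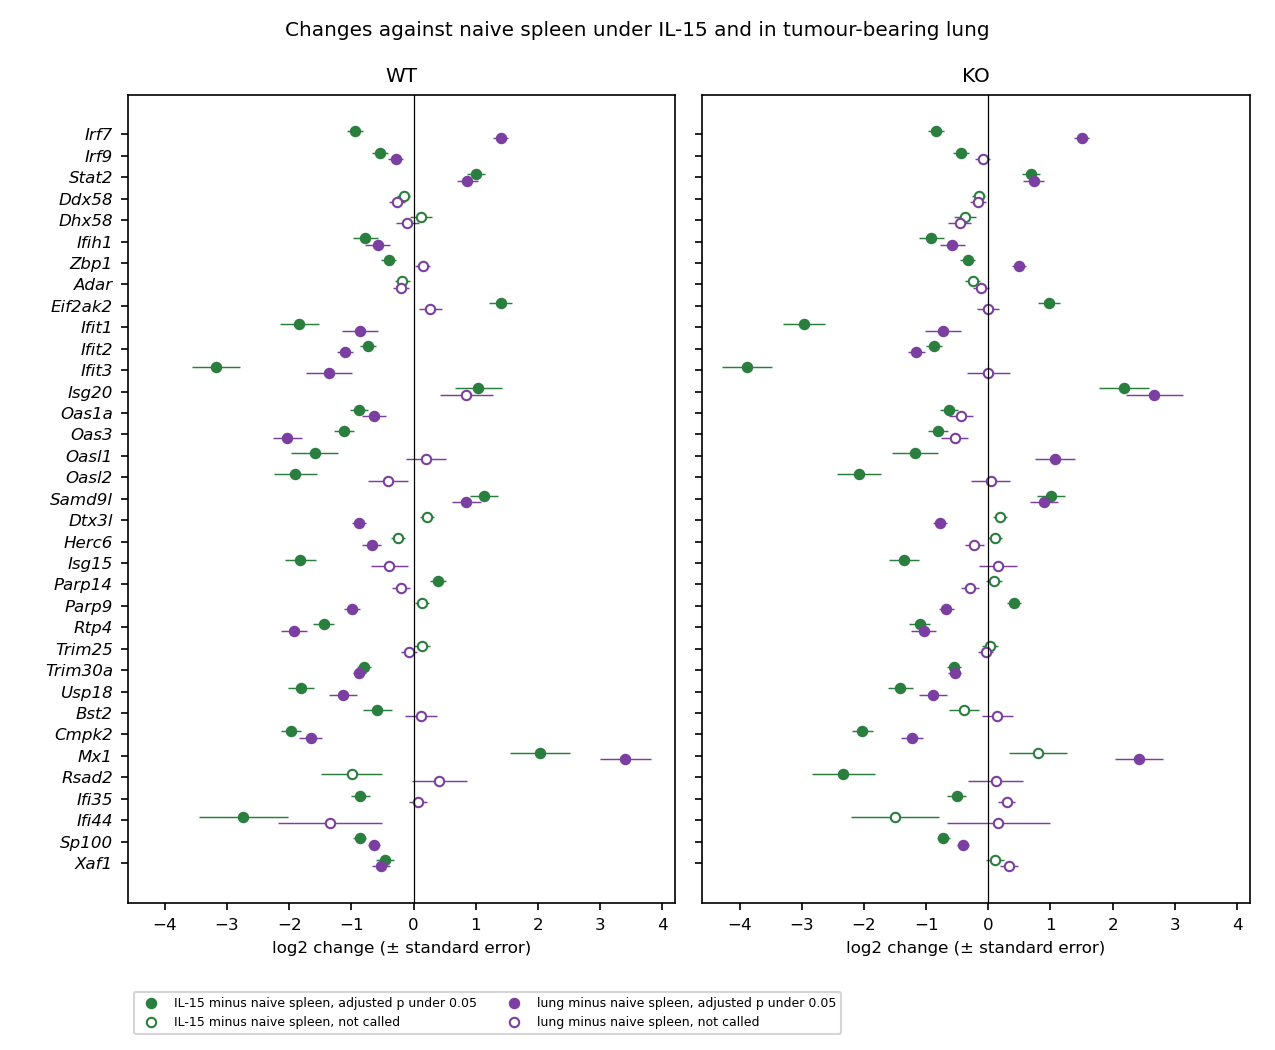
Log2 change from naive spleen for each member except Mx2 and Oas2 under IL-15 (green) and in tumour-bearing lung (purple). WT is left and KO right, with standard errors. Filled points passed an adjusted p of 0.05. Irf7 lies to the left of 0 under IL-15 and to the right in lung, in both genotypes.

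Compared directly with IL-15-treated spleen, WT lung had 12 members higher and 8 lower (23.8% and 20.6% of all genes tested), and KO lung 14 higher and 6 lower (23.3% and 20.5%). The calls common to both genotypes were 10 higher (83.3% of the WT list and 71.4% of the KO list) and 6 lower (75% and 100%). Irf7 was higher by 2.26 (SE 0.12, adjusted p = 1.1e-13) in WT and 2.27 (SE 0.12, adjusted p = 8.2e-14) in KO. Ifit3 was higher by 1.74 (SE 0.39, adjusted p = 0.000655) in WT and 3.82 (SE 0.41, adjusted p = 2.9e-08) in KO. Mx1 was higher by 1.29 (SE 0.37, adjusted p = 0.00582) and 1.56 (SE 0.37, adjusted p = 0.00121), Isg15 by 1.35 (SE 0.31, adjusted p = 0.000868) and 1.44 (SE 0.31, adjusted p = 0.000428), and Oasl1 by 1.70 (SE 0.33, adjusted p = 0.000185) and 2.19 (SE 0.34, adjusted p = 8.6e-06). Usp18 was higher by 0.60 (SE 0.23, adjusted p = 0.038) in WT, a call lost without any 1 of 5 libraries (adjusted p = 0.129 without WT lung replicate 1), and stood at 0.46 (SE 0.23, adjusted p = 0.108) in KO. Rsad2 was higher by 1.33 (SE 0.46, adjusted p = 0.0198) and 2.38 (SE 0.47, adjusted p = 0.000192). Parp9 (-1.22 and -1.16), Dtx3l (-1.18 and -1.04) and Eif2ak2 (-1.21 and -1.05) were lower in lung, in WT and KO. Stat2 had a log2 difference of -0.23 (adjusted p = 0.295) and -0.03 (adjusted p = 0.918). In these contrasts the monocyte and macrophage marker sum was 481 ± 104 CPM in WT lung and 723 ± 193 CPM in KO lung (SD, n = 4), with 1 of the 9 markers, Fcgr1, below 1 CPM. Against 37.9 and 44.3 CPM with IL-15, the exact p was again 0.0286 and the adjusted p 0.0679. Ly6c2, which NK cells also express, made up 367 CPM of the WT lung sum and 369 CPM of the KO lung sum. Lyz2 made up 94.9 and 313 CPM. Of 5 plasmacytoid dendritic cell markers, 4 were below 1 CPM in every group. The part of RNA from other cell types in the members' levels was not tested.

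Between KO and WT naive spleen 1 of 35 members was higher and 5 lower (2.86% and 14.3%), against 11.1% higher and 9.22% lower of all genes. Dhx58, a RIG-I-like receptor without signalling domains, was higher, at 11.4, 12.9, 8.86 and 10.7 CPM in WT and 21.96, 17.1, 14.4 and 13.4 CPM in KO, a log2 change of 0.57 (SE 0.18, adjusted p = 0.0304). Herc6, the mouse ligase for ISG15, was lower, at 35.2, 35.5, 36.9 and 37.9 CPM in WT and 25.5, 25.8, 31.1 and 28.8 CPM in KO, a change of -0.41 (SE 0.11, adjusted p = 0.0155). Those groups did not overlap. Oas3 stood at 30.6, 23.6, 20.5 and 31.5 CPM in WT and 14.4, 18.4, 18.9 and 19.4 CPM in KO (-0.60 (SE 0.16, adjusted p = 0.0144)), also without overlap. Xaf1, a pro-apoptotic interferon target, changed by -0.52 (SE 0.15, adjusted p = 0.0202), Rtp4 by -0.56 (SE 0.17, adjusted p = 0.0248) and Isg20 by -1.18 (SE 0.40, adjusted p = 0.0453). Rtp4 libraries overlapped between genotypes. By library values alone, 1 member (Dhx58) was higher without overlap and 8 were lower (Herc6, Ifi44, Isg20, Oas1a, Oas3, Parp9, Trim30a and Xaf1, named after their values were seen), against 10.4% and 9.9% of all genes. Of the 8 members followed in every library none was called, with Irf7 at 0.07, Stat2 at 0.33, Irf9 at -0.16, Isg15 at -0.53, Usp18 at -0.31, Ifit3 at -0.10, Adar at 0.09 and Mx1 at 1.25 (adjusted p = 0.073). Without the shallow KO naive replicate 1, 1 member was higher, Mx1, and 4 were lower, and the adjusted p was 0.082 for Dhx58, 0.0733 for Isg20 and 0.0597 for Rtp4. The Dhx58 call was also lost without WT naive replicate 1, 3 or 4 or KO naive replicate 2, and the Rtp4 call without WT naive replicate 1, 2 or 3 or KO naive replicate 4. The Isg20 call was also lost without WT naive replicate 1, 2 or 4 or KO naive replicate 2 or 3. Herc6 was not called with the compared groups alone or with all 24 libraries fitted together. It kept its call with each of the 8 naive libraries left out in turn. Oas3 lost it without WT naive replicate 4 (adjusted p = 0.0501), and Xaf1 without WT naive replicate 2 or 3. The members lower numbered 2 without WT naive replicate 2 and 3 without WT naive replicate 3 or 4. The members higher numbered 0 without WT naive replicate 3 or KO naive replicate 2, and 2 without KO naive replicate 3.

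Beside these values, 4 marker sums did not overlap between KO and WT naive spleen. The NK cell sum was 19476 CPM in KO and 23028 CPM in WT, the conventional dendritic cell sum 839 and 636 CPM, the endothelium sum 105.8 and 64.8 CPM, and the mast cell and basophil sum 0.229 and 2.22 CPM. Each of them had the smallest exact two-sided permutation p of 0.0286 (adjusted p = 0.0679). Gzma, a granzyme gene, was the largest part of the NK cell sum, at 5856 CPM in KO and 8316 CPM in WT. In KO and WT, Itgax made up 824 and 625 CPM of the dendritic cell sum, and Pecam1 105.8 and 64.6 CPM of the endothelium sum. Flt3, Clec9a, Xcr1, Kdr, Cdh5, Cldn5 and all 4 mast cell and basophil markers had means below 1 CPM in both groups. The part of these sums in the members' differences was not tested.

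With IL-15 no member differed between KO and WT, against 0.0824% higher and 0.0525% lower of all genes. At an unadjusted p under 0.05 there was 1 member, and DESeq2 and voom with library weights called 0. Estimates ran from -0.81 for Ifit3 to 0.18 for Irf7. By library values 1 member, Oas3, was lower without overlap and 0 were higher, against 1% and 2.07% of all genes, at 12.4, 11.7, 12.5 and 15.5 CPM in WT and 11.5, 10.9, 11.1 and 9.57 CPM in KO. In tumour-bearing lung no member passed either, against 0.305% higher and 0.32% lower. There 7 members had an unadjusted p under 0.05, and DESeq2 called 1, Ifit3, as did voom with library weights. Of the 37 estimates 33 were above 0 (89.2%, against 50.3% of all genes tested), with a median of 0.21 against 0.0017. Members share libraries, so this count is a description and not 37 independent results. Ifit3 had a log2 change of 1.29 (SE 0.32, adjusted p = 0.13) and Oas3 of 0.92 (SE 0.29, adjusted p = 0.261). Irf7 and Oasl2, named after their values were seen, were higher without overlap and 0 members were lower, against 4.21% and 4.55% of all genes. Without the shallow WT lung replicate 1, Ifit3 passed with a log2 change of 1.53 (adjusted p = 0.00681) and was the only member called.

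Markers of some other cells had higher means in KO lung than in WT lung. Lyz2 stood at 115, 105, 46.2 and 112 CPM in WT lung replicates 1 to 4 and at 132, 572, 308 and 238 CPM in KO lung. The monocyte and macrophage sum gave an exact two-sided p of 0.0857 (adjusted p = 0.159) and the neutrophil sum 0.171 (adjusted p = 0.27) for KO against WT lung. The B cell and plasma cell sum was 162 ± 19.7 CPM in KO and 117 ± 12.2 CPM in WT lung (SD, n = 4), with the smallest exact p of 0.0286 (adjusted p = 0.0679). The epithelium sum was 157 ± 161 CPM in KO and 53.4 ± 28.2 CPM in WT (exact p = 0.171, adjusted p = 0.27). Of it, Scgb1a1 made up 139 and 31.3 CPM. The melanocytic sum was 28.6 ± 19.1 and 8.37 ± 9.39 CPM (exact p = 0.114, adjusted p = 0.203). The T cell sum was 291 ± 38.4 and 247 ± 49.8 CPM (exact p = 0.257, adjusted p = 0.368). The endothelium sum was 109.5 CPM in KO and 112.8 CPM in WT, and the fibroblast sum 3.63 and 3.89 CPM. Within KO lung Lyz2 was highest in replicate 2 and Ifit3 in replicate 3. Their part in the result was not tested.

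The interaction, the KO effect in one state minus that in naive spleen, was tested directly. For IL-15 no member passed, against 0.472% higher and 1.06% lower of all genes. There were 3 members at an unadjusted p under 0.05, DESeq2 called 0, and voom with library weights called Ifi35. Mx1 gave -1.24 (SE 0.66, adjusted p = 0.368), Ifit1 -1.13 (SE 0.45, adjusted p = 0.201) and Isg20 1.14 (SE 0.55, adjusted p = 0.31), so the calls made in only 1 genotype are not shown to differ between genotypes. For lung 2 members were higher, against 0.168% of all genes, and 0 lower, against 0.981%. Oas3 gave 1.49 (SE 0.32, adjusted p = 0.0198). It was lower in KO than WT naive spleen, and in lung it stood at 5.87, 9.30, 4.52 and 6.23 CPM in WT and 6.51, 12.5, 14.3 and 15.7 CPM in KO. Xaf1 gave 0.85 (SE 0.20, adjusted p = 0.0393), from 19.5, 25.6, 27.02 and 19.9 and 19.4, 15.97, 15.1 and 15.2 CPM in WT and KO naive spleen to 17.2, 14.7, 17.5 and 14.9 and 16.8, 20.3, 22.9 and 22.03 CPM in lung. Both calls were lost when WT lung replicate 3, KO lung replicate 3 or KO lung replicate 4 was left out, and the Xaf1 call also without any 1 of 8 other libraries. Without the shallow WT lung replicate 1 there were 4 higher members, Oas3 (1.45), Xaf1 (0.88), Rtp4 (1.09) and Isg20 (2.36).

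**Figure D5:**
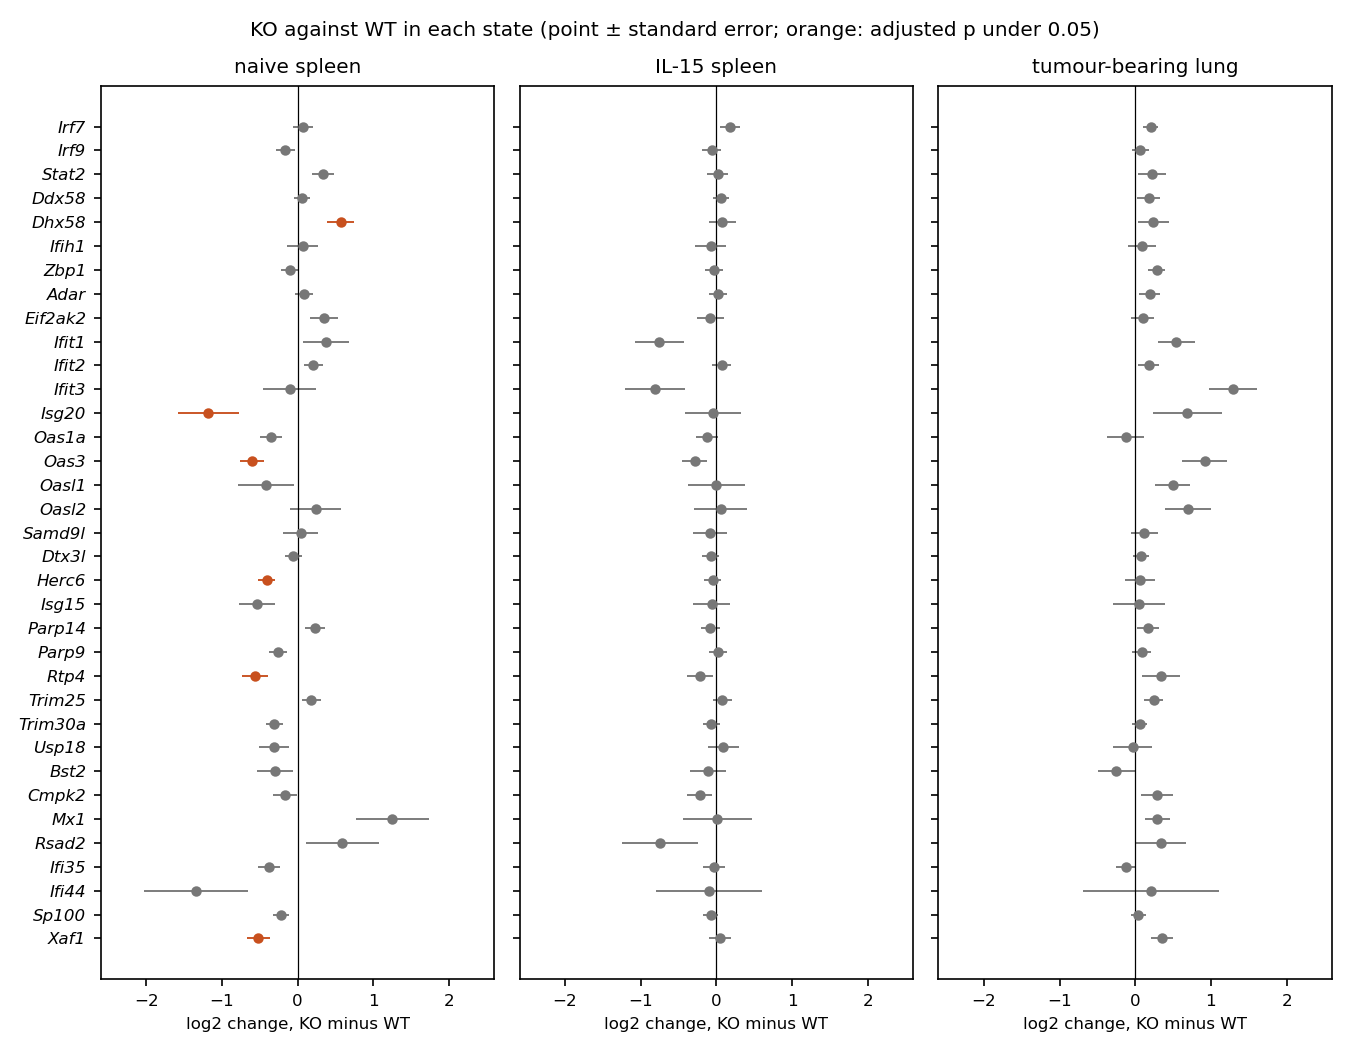
Log2 change of KO against WT for 35 members in naive spleen, IL-15 spleen and tumour-bearing lung, with standard errors; orange marks adjusted p under 0.05. Only naive spleen has orange points, and most lung points lie right of 0.

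The other genes of the pathway, from a list by role, were measured in the same libraries. Of the 15 type I interferon genes in the table, 14 had 0 counts in all 24 libraries, Ifnb1 included. Ifnab had 6 counts in 1 WT IL-15 library and 6 in 1 WT lung library. A count of 0 allows up to 3 counts, or between 0.0888 and 0.352 CPM across the libraries. Ifng, the type II ligand, stood at 70.4 ± 11.9 CPM in WT naive and 539 ± 177 CPM in WT lung, and at 82.8 ± 10.7 and 371 ± 52.8 CPM in KO (SD, n = 4). Its log2 change was 2.94 (SE 0.19, adjusted p = 5.8e-12) in WT lung and 2.16 (SE 0.19, adjusted p = 1.5e-09) in KO lung. With IL-15 it stood at a change of -0.29 in WT (not called) and fell by 0.51 in KO.

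Of 5 tested receptor genes, Ifnar1 rose and Ifngr1 fell with IL-15 in both genotypes, with Il10rb lower in WT. Ifnar1, the IFNAR chain that docks TYK2, changed by 1.36 (SE 0.13, adjusted p = 8.0e-08) in WT and 0.90 (SE 0.13, adjusted p = 1.7e-05) in KO, and in lung by 1.11 (SE 0.14, adjusted p = 4.5e-07) and 0.86 (SE 0.14, adjusted p = 2.5e-05). Ifnar2, the other chain, fell in lung by 0.58 in WT and 0.78 in KO. Ifngr1 was higher and Il10rb lower in lung than in naive spleen, in both genotypes. Among kinases and STATs, Jak1, Tyk2 and Stat4 fell with IL-15 in both genotypes. Jak1, a kinase shared by interferon and common gamma chain receptors, changed by -0.68 (SE 0.13, adjusted p = 0.000181) in WT and -0.91 (SE 0.13, adjusted p = 1.4e-05) in KO. In lung Jak1 was lower, and Tyk2 and Stat3 were higher, than in naive spleen in both genotypes.

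Among 6 further IRFs, Irf4, a factor of lymphocyte activation, rose with IL-15 by 3.56 (SE 0.25, adjusted p = 1.3e-09) in WT and 4.00 (SE 0.26, adjusted p = 4.7e-10) in KO, and Irf1, an interferon-gamma-induced factor, fell in both. In lung Irf8, which is high in myeloid cells and also made by NK cells, stood at 2412 ± 325 CPM in WT and 2233 ± 284 CPM in KO against 501 ± 30.97 and 455 ± 74.3 CPM in naive spleen (SD, n = 4). Of 6 feedback genes, Socs3, a cytokine-signalling suppressor, fell with IL-15 and rose in lung in both genotypes, by 2.87 in WT lung and 2.33 in KO lung. Of 9 tested sensors and adaptors, 3 rose with IL-15 in both genotypes, Mb21d1 (cGAS), Ticam1 and Ikbke. Myd88 and Tmem173 (STING) fell in both, and Mavs in WT. Between KO and WT, Ifnar1 (0.50 (SE 0.13, adjusted p = 0.0111)), Jak2 (0.53 (SE 0.13, adjusted p = 0.00753)) and Socs3 (0.81 (SE 0.19, adjusted p = 0.00673)) were higher in naive spleen, and no pathway gene passed with IL-15 or in lung.

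Within groups the members did not move as one. Over 595 pairs of 35 members, the correlation of their deviations from the group means across the 24 libraries had a median of 0.10, with a range from -0.83 to 0.82, and 83 pairs above 0.5. Sp100 with Samd9l (0.82) and Herc6 with Ddx58 (0.82) were the highest. The points share library depth and scaling, so this is a description only.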

How the data were processed

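RNA from the 24 NK cell libraries was enriched for poly(A) and made into directional libraries, per the labels' protocols. The submitters' processing notes name cutadapt 1.9, STAR 2.5.2a, RSEM 1.2.30 and GRCm38, with no order or settings. The authors deposited estimated counts per gene, the expected counts of RSEM, of which 5.47% were not whole within 0.001, and which were rounded here. No source says whether strand was used in counting.

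Genes were filtered with filterByExpr, scaled by TMM and tested with edgeR 4.0.16 (quasi-likelihood F test, R 4.3.3), with Benjamini-Hochberg adjustment over all genes tested and a threshold of 0.05. The 16 spleen libraries were fitted together, the 8 lung libraries together, and all 24 for lung against spleen and for the lung interaction. The 11 contrasts were not adjusted across each other. The standard error is the size of the log2 change divided by the square root of F. CPM levels use the TMM-scaled library totals. Depth ran from 9.68 to 32.1 M counts, so low members carry the larger counting error. Marker sums were compared with exact two-sided permutation tests. The scripts were tested on simulated data.

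The members and lists were chosen with earlier results of these data known. Named by rule were 8 members fixed by role, up to 3 members each way per contrast by size among those called at a mean of at least 1 CPM, and all members called where 5 or fewer passed. Alternatives were DESeq2 1.42.0 and its size factors, limma 3.58.1 voom with library weights, other filters, a length and GC offset, a replicate block, other sample sets and each library left out. Promoter sequences came from RefSeq. A gene of the pathway list is not reported here.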

Additional observations from a re-analysis of the deposited data

Results flagged for a closer look

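In 7 of 138 member groups of 4 libraries, 1 library stood apart from the other 3 by Dixon's ratio of its gap to the whole range (95% critical value). These 138 did not cover all members, so a member not listed below may not have been screened. Chance flags about 1 in 20 such groups. The KO naive replicate 2 library was highest for Ifit3 (ratio 0.86), at 16.7 CPM against 7.99 to 9.20 CPM. KO lung replicate 4 was highest for Irf7 (0.985), at 177 CPM against 157.3 to 157.6 CPM, and WT naive replicate 4 for Parp9 (0.979), at 80.3 CPM against 67.3 to 67.5 CPM. WT naive replicate 1 was highest for Rsad2 (0.831), at 4.66 CPM against 1.99 to 2.44 CPM. KO IL-15 replicate 4 was highest for Rtp4 (0.93), at 11.8 CPM against 10.01 to 10.13 CPM, and KO IL-15 replicate 3 for Xaf1 (0.94), at 22.5 CPM against 16.97 to 17.3 CPM. WT IL-15 replicate 2 was lowest for Stat2 (0.877), at 47.4 CPM against 55.5 to 56.6 CPM.

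The KO effect differed between lung and naive spleen for 2 members by the interaction test, Oas3 with a difference of 1.49 and Xaf1 with 0.85 on the log2 scale.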

How the results depend on the processing

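Low members, 4 libraries a group and 2 shallow libraries limit these results. Of 62 results on named members called, 52 kept direction and call under every alternative run, 10 lost the call under at least 1, and 0 reversed. Among those 10 were Dhx58, Isg20, Oas3 and Rtp4 in naive spleen, KO against WT. The Herc6 and Xaf1 calls of that contrast were not among the 62, and each was lost under at least 1 alternative. For KO against WT naive spleen, with 1 member higher and 5 lower, DESeq2 and the length and GC offset gave 2 higher, all 24 libraries together 3, and no filter, voom with library weights or the compared groups alone 0. Lower members numbered 8 with voom with library weights and 1 with the compared groups alone (Oas3) or with all 24 libraries (Xaf1). Leaving out each library gave 0 to 2 higher and 2 to 4 lower. For KO against WT lung, DESeq2, voom with library weights and the length and GC offset each called 1 higher member, Ifit3, and leaving out each library gave 0 to 1. The IL-15 interaction had 1 higher member with voom with library weights. The lung interaction, with 2, had 0 with the compared groups alone and 4 without the 2 shallow libraries, and 0 to 4 with each library left out. The cause was not tested.

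With each library left out, IL-15 against naive had 5 to 7 members higher and 19 to 22 lower in WT, and 5 and 17 to 20 in KO. Correlations between the deviations of same-numbered libraries from their group means ran from -0.31 to 0.38. They were not compared with those of differently numbered libraries, so whether the numbers pair libraries was not tested. With the replicate number as a block, WT IL-15 against naive had 6 members higher and 20 lower, KO 5 and 19, and naive KO against WT 1 and 4, with Isg20 lost (adjusted p = 0.0651). With the library number of the sample descriptions as a block, IL-15 against naive had 5 higher and 18 lower in WT and 5 and 15 in KO, where Rsad2 (adjusted p = 0.0534) and Irf9 (adjusted p = 0.0624) lost their calls. The largest shift of the all-gene median with DESeq2 size factors was 0.06 on the log2 scale.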
